A study of Mus musculus with 2 samples.

Results

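Keratin-associated protein genes (Krtap) were described across the cells of mouse dorsal skin. Members were all genes whose symbol starts with Krtap and that had at least 1 unique molecular identifier (UMI, a tag that counts each captured transcript once) over both libraries, which gave 51 members of 26562 genes with a UMI. The feature table listed 57 Krtap symbols, and Krtap1-4, Krtap4-13, Krtap9-5, Krtap13, Krtap20-2 and Krtap29-1 had no UMI. The study compared skin under vehicle with skin under androgen as a model of androgenetic alopecia. The Con group was male C3H/HeN mice given vehicle and the TP group was male C3H/HeN mice given testosterone propionate, 0.5 mg per day under the skin. In both groups the back was shaved, treatment began at an age of 7 weeks and skin was taken at 9 weeks, and 15 mice were pooled before dissociation to give 1 library. The third group, in which TP was combined with an antibody, is not analysed here. With 1 library per group there was no replicate, so no test was made, and every interval below is a 95% interval for counting error only. It treats UMIs as independent, although single cells held many of them, and so it does not cover differences between cells. Nor does it cover differences between animals, pools or library preparations. Fewer shaft-forming cells cannot be told apart from differences in how cells were recovered.

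Keratin-associated proteins are small structural proteins that fill the space between the keratin filaments of the hair shaft and crosslink them through cysteine. They are classed by composition as high-sulfur, ultra-high-sulfur and high glycine-tyrosine proteins, and their genes lie in tandem clusters, mostly without introns. Their transcripts appear late, as cells of the hair matrix leave the cycle and harden into cortex and cuticle during the growth phase of the follicle, after the first hair keratins.

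All 51 members had a coding model, and composition was read from its codons. Of the members, 15 were high glycine-tyrosine (57 to 155 codons, of which 29.9% to 69.2% coded glycine or tyrosine). Another 19 were ultra-high-sulfur (109 to 367 codons, 30.3% to 42.9% cysteine). The remaining 17 (98 to 502 codons) met the limits of neither group. They are called high-sulfur here, although cysteine made up from 4.0% to 29.8% of their codons. Of the 50 members with a RefSeq position, most lay in 2 loci. On chromosome 16, 22 members lay within 960 kb, among them all of the high glycine-tyrosine group, and on chromosome 11, 19 members lay within 444 kb.

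The 60 bases before the annotated start are shown for 10 members on which the results turn, because these 10 stand for all 3 compositions and for the different patterns described below. Capitals mark the TATA box (TATAAA or TATATA, read on the sense strand). Sequences and positions are from RefSeq, build GRCm38.p6.
Krtap8-1 (chr16:89487953-89488012, minus strand): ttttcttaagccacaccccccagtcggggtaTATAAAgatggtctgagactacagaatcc
Krtap22-2 (chr16:89010760-89010819, minus strand): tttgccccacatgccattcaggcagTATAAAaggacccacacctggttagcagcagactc
Krtap16-3 (chr16:88962874-88962933, minus strand): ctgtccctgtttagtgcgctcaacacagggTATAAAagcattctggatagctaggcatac
Krtap19-5 (chr16:88896450-88896509, minus strand): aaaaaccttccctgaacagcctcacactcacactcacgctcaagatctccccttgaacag
Krtap11-1 (chr16:89571184-89571243, minus strand): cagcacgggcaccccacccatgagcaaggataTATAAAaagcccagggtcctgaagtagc
Krtap15 (chr16:88828949-88829008, plus strand): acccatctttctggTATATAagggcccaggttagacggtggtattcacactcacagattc
Krtap3-3 (chr11:99550864-99550923, minus strand): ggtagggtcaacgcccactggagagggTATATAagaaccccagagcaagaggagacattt
Krtap24-1 (chr16:88612280-88612339, minus strand): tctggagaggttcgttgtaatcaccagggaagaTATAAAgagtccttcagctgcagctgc
Krtap26-1 (chr16:88647797-88647856, minus strand): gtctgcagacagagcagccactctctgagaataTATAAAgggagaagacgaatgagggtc
Krtap17-1 (chr11:99993995-99994054, minus strand): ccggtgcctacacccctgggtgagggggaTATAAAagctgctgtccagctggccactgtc

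Krtap8-1 and Krtap11-1 had the box 29 and 28 bases before the start, and Krtap19-5 had none in this window. Of the 45 members with a promoter in the table (250 bases before to 50 after the start), 36 (80.0%) held TATAAA on either strand, against 13.6% of all 32851 promoters. TATAAA or the overlapping form TATATAAG was found in 43 of the 45 (95.6%), against 14.4% of all. CTTTGAA, a form of the site bound by LEF1 and other TCF factors, was found on either strand in 9 of 45 (20%) against 5.14% of all, and 7 of these 9 were among the 16 promoters of high-sulfur members. AAGGAA was found in 21 of 45 (46.7%) against 25.9% of all, and in 12 of the 15 promoters of ultra-high-sulfur members. CTTTGTT (6 of 45, 13.3%, against 5.85%) and ACACCC (11 of 45, 24.4%, against 16%) were also searched. These are matches of letters and not mapped sites.

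After limits on genes and mitochondrial counts and removal of called doublets, 39076 Con cells with 106689853 UMIs and 18542 TP cells with 133084514 UMIs were kept, with medians of 2046 and 4822 UMIs per cell. The libraries shared 186 kept barcodes. Clusters (32, numbered from 0) were formed without any Krtap gene among the features and named from markers. Clusters 25 and 10 were cortex-like and clusters 19 and 24 cuticle-like, and these 4 are called hair shaft-like. Cluster 25 carried the late cortex keratins Krt31 (2047 CPM, UMIs per 1000000 UMIs of the same cells) and Krt33a (1340 CPM), whereas cluster 10 carried Krt35 (2152 CPM) with little Krt31 (28.7 CPM). Among the cuticle markers, Krt82 reached 68.4 CPM in cluster 19 and Krt40 had no UMI in any of the 4. The name of cluster 24 is less certain. Its Krt82 level was 21.2 CPM, below the 27.8 CPM of cluster 25, and it had 52.3 CPM of Krt72 and 864 CPM of Krt71. Its leading genes included Acsm3, Slc27a6 and Vsig8, as in cluster 19, but also Prr9, Fbp1 and Krt72, as in the inner root sheath-like cluster 1. No cluster was named medulla. Cluster 17 stayed unnamed and held 572 CPM of Krt75 and 592 CPM of Foxq1, both on the list for medulla and companion layer. Cluster 21 also stayed unnamed and combined Hoxc13 and Krt39 with Mki67 (1315 CPM). Cluster 0 stayed unnamed, with a median of 740 UMIs per cell.

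Members were summed first. Con held 18608 Krtap UMIs, or 174 CPM (172 to 177), and TP held 9485, or 71.3 CPM (69.8 to 72.7), so that TP stood at 0.409 of Con (0.399 to 0.419). Within the hair shaft-like cells the order was the other way, with 652 CPM (638 to 667) in 3913 Con cells and 845 CPM (823 to 868) in 698 TP cells, which gives 1.30 (1.251 to 1.34). Of the 4 clusters only cluster 25 was higher in TP, and clusters 10, 19 and 24 were lower (0.312, 0.789 and 0.390). Cluster 10 held 5896125 of 11627828 UMIs of the class in Con and 1185899 of 6342776 in TP, and cluster 24 held 1980236 and 3627027. The pooled ratio therefore also moves with this split. Hair shaft-like cells were 10.0% of kept Con cells and 3.76% of kept TP cells, and they held 40.8% of the Krtap UMIs in Con and 56.5% in TP. When the level of each cluster in TP was weighted by the share of UMIs which that cluster held in Con, the ratio over all cells was 0.988 instead of 0.409. The weighted ratio rested on few cells, since it was 0.799 without the richest cell of each library, 0.613 without the richest 5 and 0.530 without the richest 20. Of the 31 clusters with cells in both libraries, 28 had a lower level in TP. Their ratios were 0.789 in cluster 19, 0.696 in cluster 9 and between 0.139 and 0.407 in the rest, and only clusters 0, 17 and 25 were above 1.

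Cluster 25 had the highest level in both libraries, with 6022 UMIs in 426 Con cells (3673 CPM) and 5091 in 95 TP cells (7706 CPM), a ratio of 2.10 (2.02 to 2.18). In cluster 10, the other cortex-like cluster, the level was lower in TP, 200 against 62.4 CPM (ratio 0.312, 0.243 to 0.395). Cuticle-like cells had 93.6 CPM in Con and 43.8 CPM in TP (0.468, 0.392 to 0.557). Cluster 17 had 282 and 334 CPM (1.18, 1.08 to 1.30), cluster 21 had 254 and 35.5 CPM (0.140, 0.0940 to 0.201) and cluster 0 had 353 and 417 CPM (1.18, 0.963 to 1.44). In cluster 21, 3 of the 605 Con cells held 281 of its 489 UMIs, and without cells in which 10 or more members were detected the level was 108 CPM in Con and the ratio 0.327 (0.217 to 0.479). In cluster 0 it was then 1.51 (1.21 to 1.87). In the other named classes the level was between 46.3 and 126 CPM in Con and between 14.7 and 39.5 CPM in TP.

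**Figure D1:**
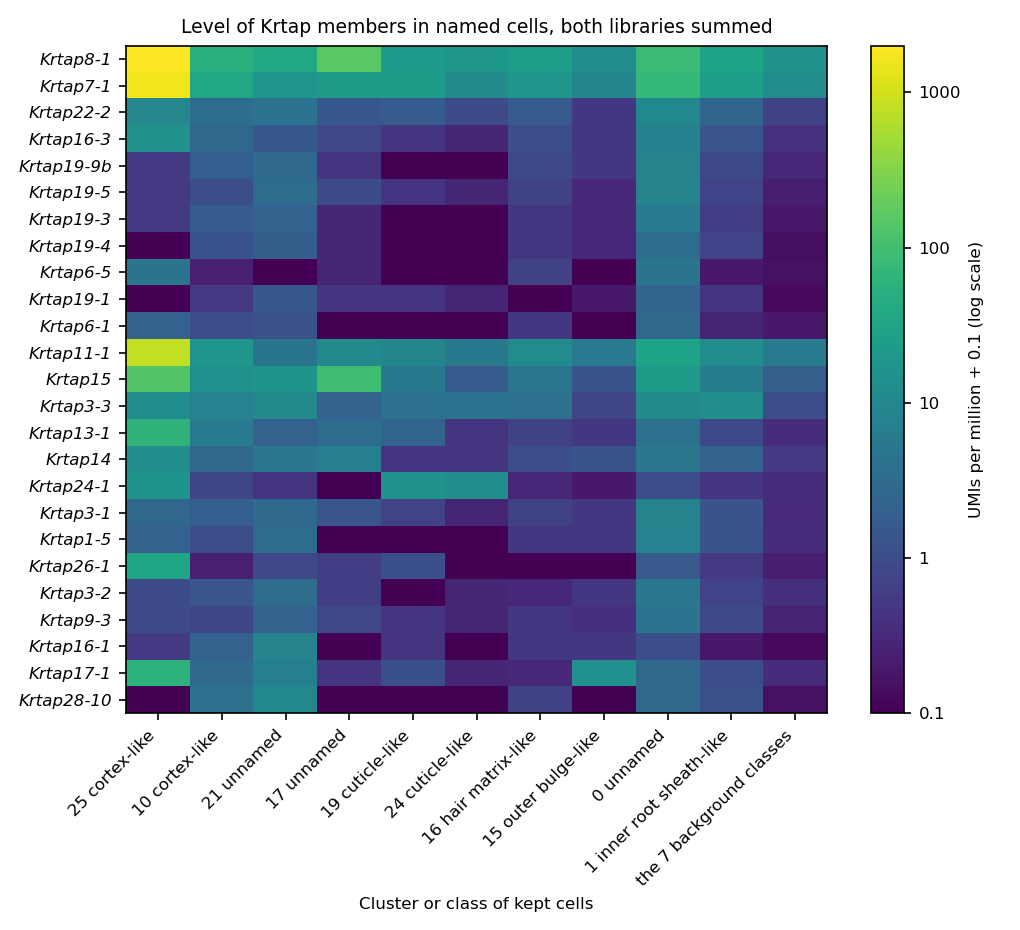
Level of the 25 members with at least 50 UMIs (rows, ordered by composition and then by abundance) in 10 clusters and in 7 classes taken as background (columns), as CPM plus 0.1 on a log colour scale, both libraries summed. Krtap8-1, Krtap7-1 and Krtap11-1 are brightest in cluster 25, Krtap15 also in cluster 17, Krtap24-1 in the cuticle-like clusters 19 and 24 and in cluster 25 (35 of its 38 UMIs there are from 1 TP cell), and Krtap17-1 in the outer bulge-like cluster 15 besides cluster 25.

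Few cells held these UMIs. A Krtap UMI was found in 8525 Con cells and 2649 TP cells, and 50% of the UMIs lay in 606 cells in Con but in 18 cells in TP. The richest TP cell had 1849 Krtap UMIs, 19.5% of its library, and the richest 5 had 40.6%. In Con these shares were 4.47% (832 UMIs) and 12.2%. All 5 of the richest Con cells and 4 of the 5 richest TP cells were in cluster 25, and the other TP cell, with 343 Krtap UMIs and 124 hair keratin UMIs, lay in the interfollicular suprabasal-like cluster 9. Between 1.36% and 9.65% of all UMIs in these 10 cells came from members.

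**Figure D2:**
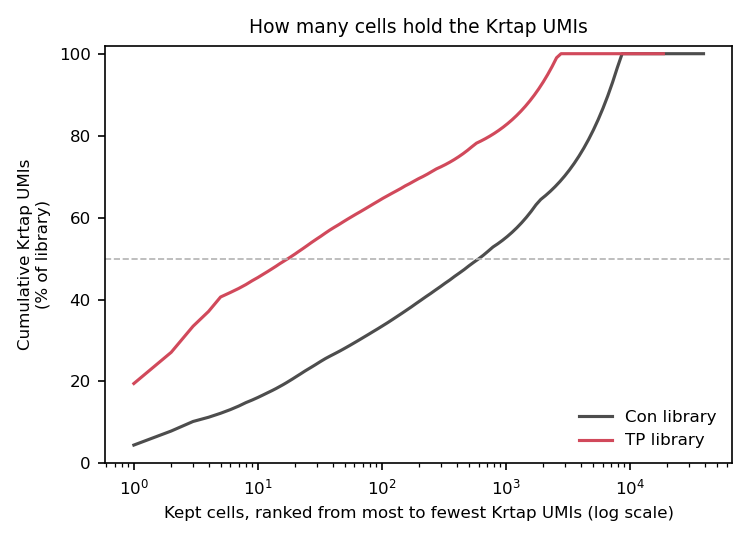
Cumulative share of the Krtap UMIs of each library (percent, y axis) against the number of kept cells ranked from most to fewest Krtap UMIs (x axis, log scale), with a dashed line at 50%. The TP curve reaches 50% after 18 cells and the Con curve after 606.

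The direction in hair shaft-like cells rested on those cells. Without the richest cell of each library the ratio was 0.958 (from 1.30), without the richest 5 it was 0.645, and without the richest 20 it was 0.437. In cluster 25 the ratio fell from 2.10 to 1.62, 1.15 and 0.818, and in all cortex-like cells from 2.93 to 2.16, 1.43 and 0.914. Over all kept cells it stayed below 1, at 0.344, 0.277 and 0.253. Equal numbers of cells were left out of both libraries, so the same number was a larger share of the 95 TP cells of cluster 25 than of its 426 Con cells. Counted per cell, the median share of UMIs from members in cluster 25 was 0.0953% in Con and 0.150% in TP. Cells above 1% were 22 of 426 in Con (5.16%, 3.26% to 7.71%) and 12 of 95 in TP (12.6%, 6.70% to 21.03%). The intervals overlap, which does not decide whether the shares differ, and the difference was not tested. Cells of 1 pool are not replicates, and their depth differed (medians of 3108 and 5192 UMIs).

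**Figure D3:**
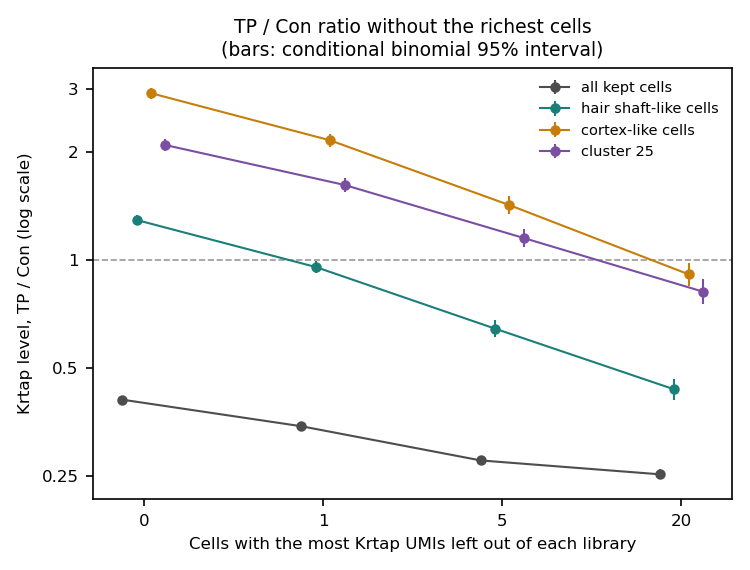
Ratio of the summed Krtap level, TP over Con (y axis, log scale), with all cells and without the 1, 5 or 20 cells of each library with most Krtap UMIs (x axis), for 4 sets of cells with counting intervals. The ratio in hair shaft-like cells goes from 1.30 to 0.437 and crosses 1 once the richest cell is left out, whereas that over all kept cells stays between 0.253 and 0.409.

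Members were then taken singly. Of the 51, 25 had at least 50 UMIs over both libraries. The other 26 were compared only in sums over subfamilies and composition groups, apart from values of Krtap4-1 under the processing alternatives. Over all kept cells 21 of the 25 were at least 2-fold lower in TP and 1 at least 2-fold higher, where 10.4% and 8.15% of 17577 genes were past these limits. The median log2 ratio was -2.89 for the 25 members and -0.23 for all genes. In hair shaft-like cells 12 members reached 50 UMIs, of which 3 were lower and 3 higher, where 6.11% and 5.71% of 11317 genes were. Without the 5 richest cells of each library 0 were lower and 1 higher, and without cells of 10 or more members 0 and 2. The 3 lower, Krtap14, Krtap16-3 and Krtap22-2, had 54 to 58 UMIs, and a member under 50 leaves the count. Without cells of 10 or more members, the 13 high glycine-tyrosine members other than Krtap8-1 and Krtap7-1 were still at a summed ratio of 0.0834 (0.0222 to 0.221) there. The median log2 ratio of the 12 members was 0.39, against -0.18 for all genes. Scaling by trimmed means (TMM) raises every log2 ratio over all kept cells by 0.25 and every one in hair shaft-like cells by 0.17.

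**Figure D4:**
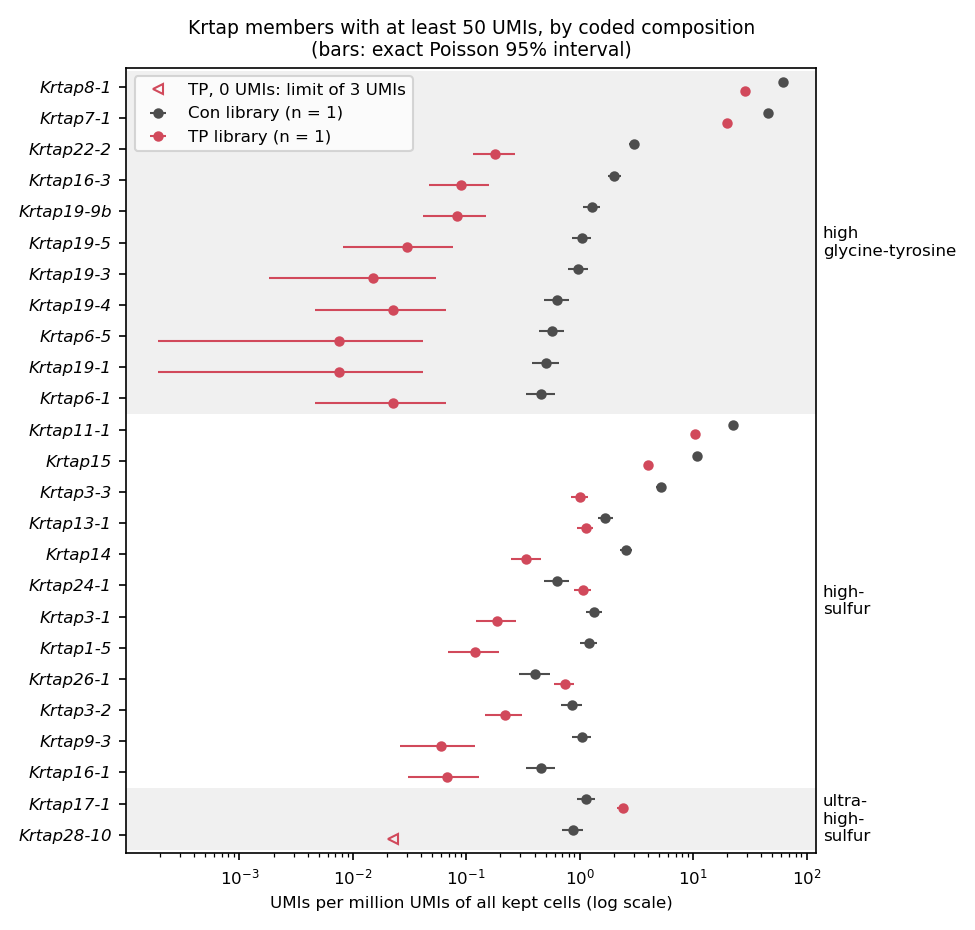
CPM (x axis, log scale) of the 25 members with at least 50 UMIs in all kept cells of the Con and TP libraries, 1 library each, grouped by composition. Points lie to the left for TP in all members but Krtap24-1, Krtap26-1 and Krtap17-1, and the gap is wide for the high glycine-tyrosine members below Krtap7-1 (log2 ratios of -3.83 and below) and for Krtap28-10, which had 0 UMIs in TP.

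The transcripts of 3 members made up most of the family. Krtap8-1, a very small high glycine-tyrosine protein, had 6677 UMIs in Con and 3786 in TP (62.6 and 28.4 CPM, log2 ratio -1.14). Krtap7-1, of the same composition, had 4926 and 2671 UMIs (46.2 and 20.1 CPM, -1.20). Krtap11-1, a high-sulfur protein, had 2403 and 1388 UMIs (22.5 and 10.4 CPM, -1.11). These 3 were lower in TP over all kept cells and moved together, and once clusters were weighted as in Con their log2 ratios were 0.04, 0.09 and 0.13. These weighted values turned negative without the richest cell of each library (-0.26, -0.46 and -0.08) and were -0.64, -0.84 and -0.48 without the richest 5. In cluster 25 their levels were 1627, 1216 and 614 CPM in Con and 2947, 2641 and 1297 CPM in TP, and the ratios there (1.81, 2.17 and 2.11) were 1.0097, 1.17 and 1.38 without the richest 5 cells. The richest cell for each member held 410, 366 and 115 of its UMIs in Con and 717, 822 and 196 in TP. The genes lie next to each other at the high-coordinate end of the chromosome 16 locus.

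Krtap15, a high-sulfur member by its codons although 24% of them code glycine or tyrosine, was abundant in a further cluster. Its counts were 1160 in Con and 534 in TP (10.9 and 4.01 CPM, log2 ratio -1.44). Cluster 17 held 30.9% of them, with 281 UMIs in 158 Con cells and 242 UMIs in 82 TP cells. The level there was 87.9 CPM in Con and 99.4 CPM in TP (ratio 1.13, 0.949 to 1.35), an interval that includes 1. In cluster 25 its level was higher than in cluster 17, at 101 CPM in Con and 248 CPM in TP (ratio 2.45, 1.96 to 3.06), but without the richest cell of each library these were 97.2 and 97.5 CPM (1.003, 0.734 to 1.36). In cluster 17 Krtap8-1 had 131 and 193 CPM, while Krtap7-1 had 27.2 and 16.02 CPM and Krtap11-1 13.1 and 7.39 CPM. The share of Krtap15 among the members' UMIs was 31.1% in Con and 29.7% in TP in cluster 17, and 2.76% and 3.22% in cluster 25.

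The high glycine-tyrosine members other than Krtap8-1 and Krtap7-1 had few UMIs in TP. These 13 members fell from 1218 UMIs in Con to 68 in TP (ratio 0.0448, 0.0345 to 0.0572). All 9 of them with at least 50 UMIs were more than 2-fold lower, where 10.4% of all genes were at least 2-fold lower. They met the limit of 50 mostly through their Con UMIs, so this count is no support beyond the summed ratio. Krtap22-2 had 322 UMIs in Con and 24 in TP (log2 ratio -4.01), and Krtap16-3 had 216 and 12 (-4.38). Krtap19-9b had 136 and 11, Krtap19-5 had 112 and 4, Krtap19-3 had 104 and 2, Krtap19-4 had 67 and 3, and Krtap19-1 had 54 and 1. Krtap6-5 had 61 and 1 and Krtap6-1 had 49 and 3. With both libraries summed, Krtap16-3 was at 16.1 CPM in cluster 25 and 7.61 CPM in the unnamed cluster 0. The rest of these 9 members were higher in cluster 0 than in cluster 25. Krtap22-2 was at 10.1 CPM in cluster 0 and 9.56 CPM in cluster 25, and Krtap19-9b at 8.35 and 0.435 CPM. Cluster 0 held 3.58% of all UMIs in Con and 0.194% in TP. How far this moves the ratio of 0.0448 was not tested. In hair shaft-like cells, where Krtap8-1 and Krtap7-1 had 1.17 and 1.40 times their Con level in TP, the 13 had 192 UMIs in Con and 4 in TP (ratio 0.0382, 0.0103 to 0.0994). Krtap16-3 was at 58 and 0 UMIs there, at least 10.5-fold lower in TP against a floor of 3 UMIs, and at 28 and 0 UMIs (at least 5.08-fold) without cells of 10 or more members. The 13 members were low in the background classes too, 97 against 22 UMIs (ratio 0.0896, 0.0537 to 0.143). Over all deposited barcodes, before any filter, they were at 1943 and 314 UMIs (0.127, 0.112 to 0.143), so the difference was smaller there.

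High-sulfur members other than Krtap11-1 and Krtap15 differed more among themselves. Krtap3-3 had 552 UMIs in Con and 133 in TP (log2 ratio -2.36). It was not confined to the cortex: the inner root sheath-like cluster 1 held 22.0% of it, at 15.1 CPM in Con and 8.44 CPM in TP. The background classes were at 2.31 and 0.436 CPM. With both libraries summed its level was 13.5 CPM in cluster 1, close to 12.2 CPM in cluster 25, 10.8 CPM in cluster 0 and 10.4 CPM in cluster 21. Krtap3-1 (144 and 25 UMIs), Krtap3-2 (91 and 29), Krtap1-5 (128 and 16) and Krtap9-3 (111 and 8) were lower in TP as well. They did not share the high level of Krtap3-3 in cluster 1. With both libraries summed they were at 1.16, 0.624, 1.16 and 0.802 CPM there, against 8.35, 5.16, 8.10 and 4.17 CPM in cluster 0. Krtap16-1 had 49 and 9 UMIs, but 7 and 8 without cells of 10 or more members. Krtap14 had 273 and 45 UMIs (-2.89), yet in cluster 17 it stood at 6.57 CPM in Con and 7.81 CPM in TP. Krtap13-1 had 180 and 150 UMIs (-0.58), of which 39 and 41 lay in 1 cell of each library, and 34.2 and 130 CPM in cluster 25. Without the richest 5 and 20 cells of each library its log2 ratio was -1.07 and -1.20. With clusters weighted as in Con it turned to 1.03, and to 0.98, 0.56 and 0.39 if the richest 1, 5 or 20 cells of each library were also left out.

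Krtap24-1, Krtap26-1 and Krtap17-1 were the members, among the 25 compared, with a higher level in TP. Krtap24-1 had 67 UMIs in Con and 141 in TP (log2 ratio 0.74). Most of its UMIs lay in the cuticle-like clusters, where cluster 19 held 22 and 26 UMIs, in 16 and 17 cells, which is 10.4 and 29.9 CPM (ratio 2.87, 1.57 to 5.32), and cluster 24 held 19 and 54 UMIs, 9.59 and 14.9 CPM (ratio 1.55, 0.905 to 2.77). The background classes were at 0.1004 and 0.317 CPM. A further 35 UMIs lay in 1 TP cell of cluster 25. Krtap26-1 had 43 UMIs in Con and 98 in TP (0.85), but 79 of the 98 were in 1 TP cell, and without the 5 richest cells of each library the log2 ratio was -1.46.

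Krtap17-1, an ultra-high-sulfur protein rich in glycine as well, had 122 UMIs in Con and 318 in TP (log2 ratio 1.06). Of the TP UMIs, 136 came from 1 cell of cluster 25, and without the 5 richest cells the log2 ratio was 0.23. The outer bulge-like cluster 15 held 34.1% of its UMIs, 21 in 9 of 612 Con cells and 129 in 72 of 1574 TP cells. Its level there was 14.2 CPM in Con and 15.2 CPM in TP (ratio 1.07, 0.670 to 1.78), some way above the 0.301 and 0.238 CPM of the background classes. Krtap8-1, the most abundant member, had 31.8 and 9.53 CPM in cluster 15, against 24.4 and 12.7 CPM in the background classes (8.35 CPM in TP without the rich cell of cluster 9). Krtap17-1 thus stood above background in cluster 15 in both libraries, at levels that could not be told apart, and its higher total in TP went with more cells in that cluster and with 1 cell in the cortex. The part of either in the total was not tested.

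The remaining ultra-high-sulfur members were rare. Without Krtap17-1, 18 members had 393 UMIs in Con and 52 in TP (ratio 0.106, 0.0779 to 0.142). Over all deposited barcodes they were at 454 and 231 UMIs (0.399, 0.339 to 0.469), so the difference was smaller there. Krtap28-10 led these 18 with 93 UMIs in 21 kept Con cells and 0 in kept TP cells, at least 38.7-fold lower against a floor of 3 UMIs. Over all deposited barcodes its log2 ratio was -4.66, against -6.87 in kept cells. Of the 93, 81 lay in cells with 10 or more members, and the 12 left without those cells give a bound of at least 4.99-fold. For the 18 members together the order was the other way in the barcodes left out for mitochondrial counts, with 32 UMIs in Con and 160 in TP (ratio 2.56, 1.75 to 3.88). Krtap5-1, Krtap5-2, Krtap5-3 and Krtap4-9, and the high-sulfur members Krtap27-1 and Krtap31-2, had between 1 and 2 UMIs each, for which no ratio is given. The last 300 bases of Krtap5-1 were 96.2% identical to Gm10013 and 95.4% to Krtap5-20, so its reads could be shared.

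Members were also found together in cells with little hair keratin. In 31 Con cells at least 10 members were detected, with a maximum of 35 in a cell of cluster 21 that had 157 Krtap UMIs of 2355 and 10 hair keratin UMIs. These 31 cells lay in 12 clusters, 8 of them in cluster 0, 6 in cluster 10 and 2 in cluster 25, and their median was 2 hair keratin UMIs. They held 11.2% of the Con Krtap UMIs, but 28.2% of the UMIs other than those of Krtap8-1, Krtap7-1 and Krtap11-1, and 87.1% of those of Krtap28-10. In TP 3 cells had 10 or more members and none had 15 or more, against 13 in Con. Among the barcodes left out for mitochondrial counts such profiles were more frequent, 25 of 3465 in Con (0.722%) and 11 of 5871 in TP (0.187%), and 1 of the TP barcodes had 41 members. Without cells of 10 or more members the ratio over all kept cells was 0.423, that of the 13 high glycine-tyrosine members was 0.0635, and that of the 18 ultra-high-sulfur members was 0.327 in place of 0.106. Of the 21 members that were 2-fold lower, 20 kept a ratio under 0.5 and Krtap16-1 did not. The 13 high glycine-tyrosine members were then at 88 and 4 UMIs (0.0834, 0.0222 to 0.221) in hair shaft-like cells, and there 0 members were both above 50 UMIs and 2-fold lower in TP.

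**Figure D5:**
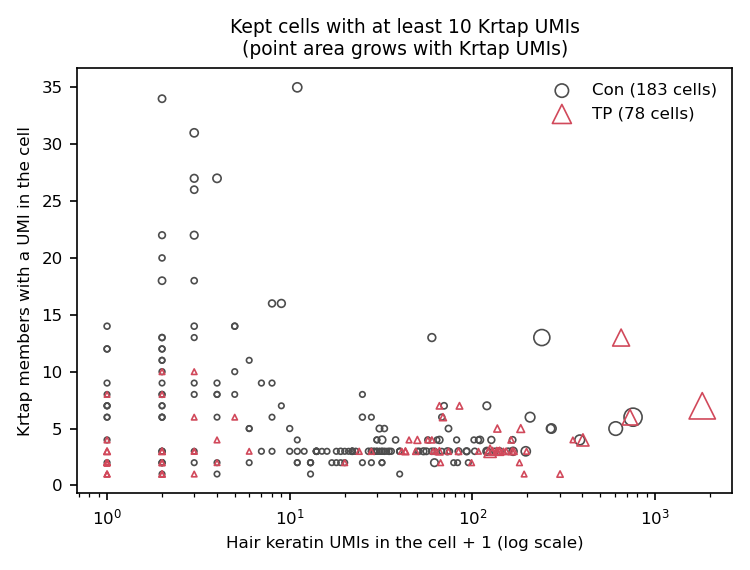
Number of members with a UMI (y axis) against hair keratin UMIs plus 1 (x axis, log scale) in the 183 Con and 78 TP kept cells with at least 10 Krtap UMIs, where the area of a point grows with its Krtap UMIs. Cells with many hair keratin UMIs mostly had 3 to 7 members, while 29 of the 31 Con cells and 2 of the 3 TP cells with 10 or more members had at most 10 hair keratin UMIs.

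The mix of members differed between sources. Members other than Krtap8-1, Krtap7-1, Krtap11-1 and Krtap15 made up 18.5% of Krtap UMIs over all kept Con cells (17.9% to 19.1%) and 11.7% in TP (11.02% to 12.3%). In cluster 25 the share was 3.14% in Con and 7.42% in TP, where 1 TP cell held 287 of the 378 UMIs, and without the richest 5 cells of each library it was 2.32% (1.86% to 2.86%) and 2.15% (1.49% to 2.99%). In cells with 10 or more members the share was 55.1% in Con. In cluster 21 it was 61.8% in Con, and 27.9% (21.9% to 34.5%) without its 3 cells of that kind. In the background classes it was 18.7% in Con (16.7% to 20.7%) and 8.58% in TP (7.18% to 10.2%). In TP 343 of these UMIs, all of Krtap8-1, Krtap7-1 and Krtap11-1, were in the rich cell of cluster 9, and without it the share was 11.3% (9.48% to 13.3%). The Con background thus had about the mix of the whole library and not that of cluster 25.

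Krtap UMIs were found in every class, including those that should lack the genes. Over 7 such classes (dermal fibroblast-, endothelial-, lymphocyte-, myeloid-, melanocyte-, interfollicular basal- and interfollicular suprabasal-like) the level was 74.0 CPM in Con (70.3 to 77.9) and 28.2 CPM in TP (26.8 to 29.7), a ratio of 0.381 (0.354 to 0.410). The rich TP cell of cluster 9 held 343 of the 1422 TP UMIs, and without it the level was 21.4 CPM (20.2 to 22.7) and the ratio 0.289 (0.267 to 0.313), beside 0.277 over all kept cells without the richest 5 of each library. If every cell carried the background level it would come to 42.4% of the Krtap UMIs in Con and 39.6% in TP, or 30.04% in TP without that cell. After each cell was thinned to 1000 UMIs, a Krtap UMI was seen in 59.4% of cluster 25 in Con and 54.8% in TP (79.3% and 81.1% without thinning, medians of 3108 and 5192 UMIs). In cluster 17 the thinned shares were 22.8% and 21.6%, and in cluster 10 they were 13.4% and 7.48%. In the interfollicular basal-like cells they were 10.3% and 2.51% (18.7% and 8.80% without thinning, medians of 1893 and 3098 UMIs). Cluster 10 of Con was thus nearer to the background than to cluster 25.

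The libraries were next compared in steps of the content of hair keratins, the filament proteins that these proteins bind. Content was not equal within a step. Above 1%, hair keratins made up 8289 of 494851 UMIs in Con and 7855 of 351092 in TP. Cells without a hair keratin UMI had medians of 1850 UMIs in Con and 4103 in TP. In cells without a hair keratin UMI the Krtap level was 107 CPM in 18223 Con cells and 28.8 CPM in 12061 TP cells (ratio 0.270). In cells with up to 0.1% hair keratin UMIs it was 101 and 28.7 CPM (0.284), and between 0.1% and 1% it was 348 and 276 CPM (0.791). Above 1% it was 8455 CPM in 96 Con cells and 13247 CPM in 39 TP cells (1.57, 1.502 to 1.63). Without the 5 richest cells of each library this last ratio was 0.960 (0.891 to 1.03) and without the richest 20 it was 0.630 (0.558 to 0.710), while that between 0.1% and 1% fell to 0.555 and 0.548. Both libraries showed the steep step to cells with over 1% hair keratin, and the direction of the difference above it depended on the richest cells. Over all kept cells there were 297 Krtap UMIs per 1000 hair keratin UMIs in Con and 325 in TP (ratio 1.09, 1.07 to 1.12), but the ratio was 0.971 without the richest cell of each library and 0.778 without the richest 20. In cluster 25 these were 443 and 541, and in cluster 10 they were 84.3 and 19.3. By step they were 267 and 189 in cells with up to 0.1% hair keratin UMIs. They were 137 and 90.8 between 0.1% and 1%, and 505 and 592 above 1%.

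Genes that act with the members were described from lists. Krt85, a further hair keratin of the list, is not analysed here and enters neither the hair keratin content nor the counts. Counts past 2-fold can be set beside those over all genes, which were 10.4% lower and 8.15% higher over all kept cells (median log2 ratio -0.23) and 6.11% and 5.71% in hair shaft-like cells (median -0.18). Of 14 hair keratins with at least 50 UMIs, 9 were at least 2-fold lower in TP over all kept cells and 0 higher (median log2 ratio -1.25), and in hair shaft-like cells 0 of 12 were lower and 2 higher (median 0.25). Krt35, the early cortex and cuticle keratin, went from 40675 to 17142 UMIs (-1.57), Krt31 from 5209 to 2854 (-1.19) and Krt86 from 2786 to 793 (-2.13). Of 15 regulators of shaft differentiation, 4 were lower over all kept cells, 0 were higher and the median was -0.29. The 4 were Lef1 (-1.28), which transduces Wnt signals in the matrix, Msx2 (-1.17), Foxn1 (-1.16), the gene mutated in nude mice, and Dlx3 (-1.07). Hoxc13, a homeobox factor needed for hair keratin and Krtap transcription, was at 8606 and 6261 UMIs (-0.78), and Vdr was at 5826 and 9704 (0.42). In hair shaft-like cells 1 of the 15, Gata3 (1.11), was past 2-fold. Values pooled over these cells, for each of the lists, also move with the mix of their 4 clusters. Cluster 24 held 1980236 of their 11627828 UMIs in Con and 3627027 of 6342776 in TP. Of 15 other structural and crosslinking genes of the shaft, 4 were lower and 1 higher over all kept cells (median -0.42), the latter being Tgm1 (1.04), a transglutaminase. In hair shaft-like cells 5 of 14 were higher and 0 lower (median 0.80), pooled over the same differing mix of clusters. The median of the members over all kept cells, -2.89, lay below those of these 3 lists.

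Along the genome, 14 of the 17 compared members of the chromosome 16 locus were at least 2-fold lower in TP and 0 at least 2-fold higher. Krtap24-1 and Krtap26-1 of this locus were higher by less than 2-fold. Over all genes 10.4% were at least 2-fold lower and 8.15% at least 2-fold higher. The locus had 16948 UMIs in Con and 8882 in TP (ratio 0.420, 0.409 to 0.431). On chromosome 11, 6 of 7 were at least 2-fold lower and 1, Krtap17-1, at least 2-fold higher (1409 and 580 UMIs, ratio 0.330, 0.299 to 0.364). The 5 members on chromosome 7, all of subfamily 5, had 38 and 1 UMIs (9 and 1 without cells of 10 or more members), and the 3 on chromosome 10 had 96 and 19. By subfamily number, the summed levels of subfamilies 6 (149 and 6 UMIs), 19 (516 and 22) and 28 (117 and 3) were the furthest below Con among those with at least 50 UMIs. Without cells of 10 or more members they were at 80 and 6, 307 and 21, and 21 and 2 UMIs, so that subfamily 28 fell under the limit of 50. The levels of subfamilies 17, 24 and 26, which are Krtap17-1, Krtap24-1 and Krtap26-1 alone, were above Con, that of subfamily 26 through 79 UMIs of 1 TP cell.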

How the data were processed

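The authors pooled dorsal skin of 15 mice per group, dissociated it, made droplet libraries with the 3′ v4 chemistry and ran Cell Ranger 8.0.1 against mm10. What the authors deposited are raw UMI counts for each gene in each barcode, and no column of the authors' own comparisons was used. The limits of the study were applied (200 to 8000 genes, at most 10% mitochondrial counts), and 7.5% of barcodes were removed as doublets by a rewritten artificial-neighbour procedure (3168 in Con, 1503 in TP). Barcodes over the mitochondrial limit numbered 3465 in Con and 5871 in TP. The libraries held 130999979 and 166929585 UMIs before these steps.

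Log normalization, 2000 variable genes, reciprocal PCA integration, 30 components and Louvain clustering at resolution 1 were run in Seurat 5.3.0 (R 4.3.3), with every Krtap gene kept out of the features. A cluster took the class with the highest marker score if that reached 1.25 with at least 3 markers detected, and none where its 10 leading genes went against it. UMIs were summed over cells and given per 1000000 UMIs of the same cells (CPM). For log2 ratios 1 UMI was added to each library before division by its total, and counts of genes past 2-fold used those with at least 50 UMIs over both libraries. Intervals are exact Poisson for levels, exact conditional binomial for ratios and Clopper-Pearson for shares, and a count of 0 was given a floor of 3 UMIs per library. For shares of cells with a UMI each cell was thinned to 1000 UMIs, leaving out shallower cells (5362 in Con and 870 in TP). With 1 library per group no test or p-value was computed. The summation was tested on simulated counts with known ratios. TMM factors came from edgeR 4.0.16, which was used for nothing else, and sums and intervals from Python 3.11.15 (scipy 1.17.1, pandas 2.3.3, numpy 2.4.6).

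Members and lists were chosen with earlier results of these data known. Members named singly were the 10 most abundant, the leading member of each subfamily with at least 50 UMIs, the 5 largest rises and falls among members with at least 200 UMIs, and those with 1 to 3 UMIs. Others are named as examples of a group. Leaving out the richest cells or cells with 10 or more members, also together with weighting by cluster share, and subtracting the background level, were chosen after the data were seen. So were the limits for composition, which are at least 30% cysteine codons for ultra-high-sulfur and otherwise at least 25% glycine and tyrosine codons for high glycine-tyrosine. Members that met neither limit were called high-sulfur, without a lower limit on cysteine. Codons were read from GENCODE vM39, since no protein table was used here, and the planned protein identity was replaced by identity of the last 300 transcript bases (blastn 2.17.0, at least 95% over 200 bases). Positions and promoters are from RefSeq GRCm38.p6.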

Additional observations from a re-analysis of the deposited data

Results flagged for a closer look

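The summed Krtap level was higher in the TP library in cortex-like cells and lower in cuticle-like cells. The ratio of TP over Con was 2.93 in cortex-like cells (956 CPM in Con, 2797 CPM in TP) and 0.468 in cuticle-like cells (93.6 and 43.8 CPM), and the difference between them was not tested. The cortex-like value was 0.914 without the 20 richest cells of each library. The 2 cortex-like clusters went opposite ways, with ratios of 2.10 in cluster 25 and 0.312 in cluster 10. Cluster 10 held 2430 of the 2856 cortex-like cells in Con and 221 of 316 in TP, so that the value of the class also moves with this split. The background classes were at 74.0 and 28.2 CPM (ratio 0.381). Of the 2 cuticle-like clusters, cluster 19 alone was at 0.789 (0.586 to 1.05) and cluster 24 at 0.390 (0.310 to 0.490).

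Barcodes over the mitochondrial limit, which were left out of the kept cells, held more Krtap per UMI than kept cells in both libraries. Their level was 1121 CPM in Con (1092 to 1151) against 174 CPM in kept cells, and 313 CPM in TP (302 to 324) against 71.3 CPM. Their median was 1116 UMIs in Con and 1119 in TP. Members other than Krtap8-1, Krtap7-1, Krtap11-1 and Krtap15 made up 19.5% of these UMIs in Con and 23.8% in TP.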

How the results depend on the processing

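The summed level over all kept cells stayed lower in TP under each alternative tried but one, clusters weighted by their share in Con without cells of 10 or more members, where the ratio was 1.007. The ratio of 0.409 became 0.486 with TMM scaling, 0.988 with clusters weighted by their share in Con (0.799, 0.613 and 0.530 if also without the richest cell, 5 or 20 cells of each library), 0.436 with all deposited barcodes, 0.450 with doublets kept, 0.233 without the top 1% of cells by Krtap UMIs and 0.429 after the background level was subtracted (0.496 with that level taken without the 5 richest cells). Without the richest cell, 5 or 20 cells of each library it was 0.344, 0.277 and 0.253, and without cells of 10 or more members 0.423. In hair shaft-like cells the ratio of 1.30 became 1.46 with TMM scaling and 1.41 or 1.42 after background subtraction, and it turned to 0.261 without the top 1% of cells and to 0.958, 0.645 and 0.437 without the richest 1, 5 and 20 cells. The ratio per hair keratin UMI, 1.09, was 1.15 without cells of 10 or more members and turned to 0.782 without the top 1% and to 0.971, 0.819 and 0.778 without the richest 1, 5 and 20 cells. The share of Krtap UMIs in hair shaft-like cells (40.8% in Con, 56.5% in TP) was 14.2% and 6.78% without the top 1% of cells, 38.0% and 46.0%, 32.5% and 32.9%, and 29.4% and 21.9% without the richest 1, 5 and 20 cells, and 39.9% and 53.1% without cells of 10 or more members. In Con it was 43.2% without cells under 1000 UMIs and 42.6% at resolution 0.5.

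Over all kept cells the 21 members past 2-fold and lower in TP were 44 with no low-count filter, 8 at 200 UMIs and 0 on log2 of counts per 10000 plus 0.1, where most members lie under the pseudocount. The 1 higher member became 2 with TMM scaling, 9 at Con cluster shares, and 0 with all deposited barcodes, with doublets kept, with the pseudocount of 0.1, without the richest 5 or 20 cells and without cells of 10 or more members. In hair shaft-like cells the 3 higher were 5 with no filter, 0 at 200 UMIs and 1 without the richest 5 or 20 cells. The 3 lower there were 24 with no filter and 0 at 200 UMIs, with the pseudocount of 0.1, without the richest 5 cells and without cells of 10 or more members. Shares over all genes were computed for single genes at the main settings only (10.4% lower and 8.15% higher over all kept cells). The counts under other settings, and all counts of subfamilies, therefore have no such share beside them and only describe the members. Of the subfamilies, counted past 2-fold as the members are, 15 were lower and 1 higher over all kept cells. At Con cluster shares 8 were lower and 5 higher, and the 1 higher became 2 with TMM scaling and 0 with all deposited barcodes, with doublets kept, without the richest 5 or 20 cells and without cells of 10 or more members. In hair shaft-like cells 4 subfamilies were lower (2 without the richest 5 cells, 0 without cells of 10 or more members) and 3 higher (1 without the richest 5 or 20 cells).

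At Con cluster shares the log2 ratio turned to 0.0396 for Krtap8-1 and its subfamily 8, 0.0909 for Krtap7-1 and subfamily 7, 0.13 for Krtap11-1 and subfamily 11, 1.03 for Krtap13-1 (0.98, 0.56 and 0.39 without the richest 1, 5 and 20 cells, 1.44 without cells of 10 or more members), 0.85 for Krtap4-1, 0.26 for subfamily 1, 1.497 for subfamily 4 and 0.10 for subfamily 9. With these shares and without cells of 10 or more members Krtap8-1, Krtap7-1, Krtap11-1 and Krtap4-1 turned to 0.0218, 0.115, 0.118 and 1.53. Also at Con cluster shares, Krtap4-1 was at 0.85 without the richest cell or 5 cells and at 1.62 without 20. At these shares Krtap17-1 turned to -0.0781 without 5 and Krtap1-5 to 0.22 without 20. Without any weighting by cluster, Krtap26-1 turned to -1.46, -1.35 and -1.32 without the richest 5 cells, the richest 20 and cells of 10 or more members. The sign was kept in 207 of 228 alternatives for named members and in 108 of 115 for subfamilies. The 228 included runs without the richest cells or without cells of 10 or more members, which the 115 did not. The causes were not tested. No paired analysis was possible because each group was 1 library. The pooling of mice, the single library per group and the Krtap UMIs in cells that should lack them limit what these counts can show, and single members under 50 UMIs are not compared here, except that the values of Krtap4-1 (33 UMIs in Con and 6 in TP) stand above because it led its subfamily.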

Other observations

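Across 63 points, each a cluster in a library, log2(CPM + 1) of other genes was set beside that of the summed members. Of the genes whose symbol does not start with Krtap, the most alike were Krt31 (Pearson r = 0.859), Krt33a (0.828), Krt83 (0.827), Padi4 (0.807), Gprc5d (0.807), Krt87 (0.782), Gm11571 (0.777), Them4 (0.770), Alox8 (0.764) and Krt33b (0.758). The points share 2 libraries, and Krtap UMIs were found in every class, so these values are a description. Of the 10 genes, 5 are cortex keratins, and Padi4 is a peptidylarginine deiminase. Padi4 was at 21.8 CPM in Con and 5.58 CPM in TP over all kept cells, and Them4 at 50.1 and 22.4 CPM.

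Called doublets held 117 CPM of members in Con and 92.9 CPM in TP, and 1 TP barcode among them had 1304 Krtap UMIs.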
